A study of Mus musculus with 9 samples.

Results

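The regions described here are stretches of chromatin that carried acetylated lysine 27 of histone H3 (H3K27ac) in mouse granulosa cells and in which no peak of the glucocorticoid receptor (GR) was called. They are the H3K27ac peaks on chromosomes 1 to 19 and X that were at least 1000 and under 3000 bp wide and overlapped, by 1 bp or more, no peak of any of 4 GR peak lists. Of 37453 H3K27ac peaks on those chromosomes, 10954 lay in that range of widths, and 4487 of these (41.0%) had no GR peak. They are called GR-free regions below, and they are set against the 3165 regions (28.9%) of the same widths that overlapped a GR peak in all 4 lists. The remaining regions overlapped a GR peak in 1 list (1024 regions), in 2 lists (1034) or in 3 lists (1244). The regions were chosen by their width and by overlap with the GR peak calls, so counts of either are a description and were not tested.

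The study mapped chromatin by immunoprecipitation and sequencing (ChIP-seq) in granulosa cells, the somatic cells around the oocyte, obtained by puncturing ovaries. All groups used here were wild-type F1 mice of the cross CBA x C57BL/6, 21 days old, primed with 5 IU of equine chorionic gonadotropin (eCG), a hormone that acts on follicles like follicle-stimulating hormone (FSH). GR was sampled, with 2 libraries each, at 44 h after eCG (0 h) and 6 h after a further 5 IU of human chorionic gonadotropin (hCG), which acts like the surge of luteinising hormone (LH). The H3K27ac list comes from 1 library at 0 h, so that GR peaks at 6 h are set against acetylation recorded before hCG. Whether replicate libraries are from different mice or different pools is not said in the labels.

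GR is a nuclear receptor that enters the nucleus when it carries a glucocorticoid and binds DNA directly at its response element or together with other factors, largely where chromatin is already open. H3K27ac is laid down by the acetyltransferases p300 and CBP at active promoters and active enhancers. Granulosa cells maintain their identity and their response to FSH through many enhancers bound by other regulators, among them SF-1, GATA4, FOXL2 and oestrogen receptor beta.

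Most GR-free regions held no promoter, so the few promoters among them are shown first. Of 291 genes of the 22 gene lists used below that had a promoter window in the RefSeq table (250 bases before to 50 bases after a transcription start), 2 had a window in a GR-free region and 65 had one in a region with GR in all 4 lists. Over all 17274 protein-coding genes with a window, 262 (1.52%) had one in a GR-free region and 2599 (15.0%) in a region with GR in all 4 lists. The 2 genes of the lists are Lipe, which encodes hormone-sensitive lipase, and Grem1, which encodes a secreted antagonist of bone morphogenetic proteins (BMPs). Ptges, which encodes a prostaglandin E synthase, and Stat5a, which encodes a transcription factor of cytokine and prolactin signalling, were added after their values were seen, because their promoters also lay in GR-free regions. The promoters of Dusp1, which encodes a phosphatase that inactivates MAP kinases, and Klf9, which encodes a Krüppel-like transcription factor, stand for regions with GR in all 4 lists. Sequences run 5′ to 3′ on the strand of the gene, and capitals mark the CpG dinucleotides, which the results on promoters turn on.
Lipe, GR-free: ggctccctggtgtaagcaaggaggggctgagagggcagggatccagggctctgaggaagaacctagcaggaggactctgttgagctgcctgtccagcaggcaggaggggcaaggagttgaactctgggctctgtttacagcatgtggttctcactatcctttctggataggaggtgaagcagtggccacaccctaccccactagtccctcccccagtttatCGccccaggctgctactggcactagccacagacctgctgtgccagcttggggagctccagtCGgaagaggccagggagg
Grem1, GR-free: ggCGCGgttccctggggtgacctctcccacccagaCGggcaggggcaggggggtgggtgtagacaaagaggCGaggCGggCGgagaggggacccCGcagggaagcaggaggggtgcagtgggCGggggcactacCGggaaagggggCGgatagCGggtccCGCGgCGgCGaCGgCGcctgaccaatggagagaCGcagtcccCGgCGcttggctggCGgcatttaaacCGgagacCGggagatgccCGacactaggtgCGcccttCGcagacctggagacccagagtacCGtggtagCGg
Ptges, GR-free: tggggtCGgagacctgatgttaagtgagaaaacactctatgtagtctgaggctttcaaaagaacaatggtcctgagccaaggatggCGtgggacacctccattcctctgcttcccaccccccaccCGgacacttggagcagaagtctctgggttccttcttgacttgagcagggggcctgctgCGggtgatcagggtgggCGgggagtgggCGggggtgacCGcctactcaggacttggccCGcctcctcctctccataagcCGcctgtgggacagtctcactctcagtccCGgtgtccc
Stat5a, GR-free: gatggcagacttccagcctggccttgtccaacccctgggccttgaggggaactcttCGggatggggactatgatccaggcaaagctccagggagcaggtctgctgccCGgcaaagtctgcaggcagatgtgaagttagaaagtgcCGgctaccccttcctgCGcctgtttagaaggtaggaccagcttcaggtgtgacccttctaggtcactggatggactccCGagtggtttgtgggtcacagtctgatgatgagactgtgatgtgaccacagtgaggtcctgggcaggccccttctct
Dusp1, GR in all 4 lists: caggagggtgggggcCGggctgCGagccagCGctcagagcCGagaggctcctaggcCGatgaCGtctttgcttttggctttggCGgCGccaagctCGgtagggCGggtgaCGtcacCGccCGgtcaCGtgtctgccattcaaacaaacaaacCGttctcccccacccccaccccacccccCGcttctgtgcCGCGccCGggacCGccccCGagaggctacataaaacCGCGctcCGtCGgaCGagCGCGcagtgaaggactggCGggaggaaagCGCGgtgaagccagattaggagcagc
Klf9, GR in all 4 lists: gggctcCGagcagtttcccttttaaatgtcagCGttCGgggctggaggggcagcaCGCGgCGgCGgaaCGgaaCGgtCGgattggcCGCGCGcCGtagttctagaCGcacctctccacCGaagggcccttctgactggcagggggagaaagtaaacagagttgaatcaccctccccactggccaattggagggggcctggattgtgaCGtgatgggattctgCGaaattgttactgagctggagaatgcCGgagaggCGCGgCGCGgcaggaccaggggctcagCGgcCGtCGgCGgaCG
These windows are from RefSeq on GRCm38.p6, the assembly of which mm10 is the browser name. The Lipe window is at chr7:25390063-25390362 on the minus strand, Grem1 at chr2:113758599-113758898 on the minus strand and Ptges at chr2:30903248-30903547 on the minus strand. The Stat5a window is at chr11:100859406-100859705 on the plus strand, Dusp1 at chr17:26508423-26508722 on the minus strand and Klf9 at chr19:23140976-23141275 on the plus strand. A window was counted as in a region by 1 bp of overlap. The acetylated regions at Grem1 and Ptges ended inside the windows, at positions 113758669 and 30903415. The 5′ part of each of these sequences therefore lay outside its GR-free region.

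The windows of Lipe, Stat5a and Ptges held 2, 5 and 10 CpG dinucleotides, and that of Grem1 held 28. The Dusp1 and Klf9 windows held 31 and 28. As the CpG ratio, the number of CpG dinucleotides over the number that the C and G content would give, these are 0.0748 for Lipe, 0.202 for Stat5a, 0.371 for Ptges and 0.792 for Grem1. The ratio was 0.921 for Dusp1 and 0.962 for Klf9. Thus the Grem1 window shown is rich in CpG, like the Dusp1 and Klf9 windows, and those of Lipe, Ptges and Stat5a are not. Lipe and Stat5a each have 1 other start in the table, whose windows lay in acetylated peaks of neither kind compared here and had CpG ratios of 0.681 and 0.800. Of 260 genes with a distinct window in a GR-free region, 85 have more than 1 start, so a window is not the only promoter of its gene. The acetylated region at the Grem1 promoter, 2489 bp wide, lay 89921 and 48160 bp from the nearest GR peak of the 0 h libraries, and 89875 and 895915 bp from that of the 6 h libraries. The region at the Lipe promoter (1937 bp) lay 4558 and 71883 bp from the nearest GR peak at 0 h and 4483 and 72158 bp at 6 h, so that the first library of each time had a peak nearby and the second had not. The region at the Ptges promoter (2569 bp) was 9017 and 8933 bp from GR at 0 h, and 64282 and 49522 bp at 6 h. The Stat5a region (1806 bp) was GR-free by a small margin, with a GR peak 284 and 201 bp away at 0 h and 210 bp away in the first library at 6 h, against 14983 bp in the second. In the Dusp1 region, the highest fold enrichment of a GR peak, as given by the authors, was 11.9 and 11.5 at 0 h and 17.7 and 10.9 at 6 h. In the Klf9 region it was 11.3 and 13.4 at 0 h and 16.2 and 14.9 at 6 h. Fold enrichments of different lists were normalized separately and rank peaks only within a list.

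The share of acetylated peaks without GR fell with width. It was 85.1% of peaks of 200 to under 500 bp (12721 of 14943), 62.8% at 500 to under 1000 bp, 45.7% at 1000 to under 1500 bp, 36.5% at 1500 to under 2000 bp and 35.7% at 2000 to under 3000 bp. Among wider peaks it was 27.1% (3000 to under 5000 bp) and 11.8% (5000 bp and over, 36 of 304). Within the chosen range, median widths were 1414 bp for GR-free regions (quartiles 1181 and 1848 bp) and 1614 bp for regions with GR in all 4 lists (1298 and 2012 bp). Regions with GR in 1, 2 and 3 lists had medians of 1514, 1477.5 and 1444.5 bp, so width did not follow the number of lists in order. At every width the place of the peak separated them further. From 1000 to under 1500 bp, 13.3% of peaks within 1 kb of either end of protein-coding genes and 72.1% of peaks farther away were GR-free. From 2000 to under 3000 bp these shares were 9.30% and 52.3%.

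**Figure D1:**
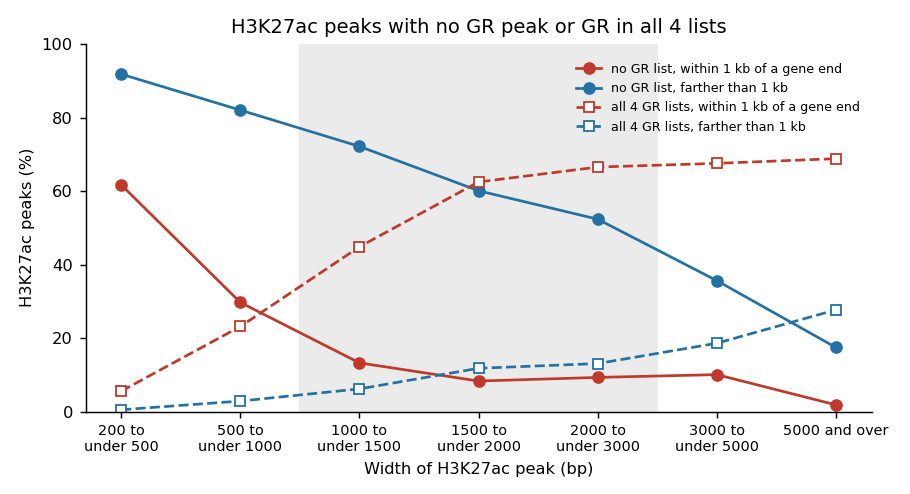
Share of H3K27ac peaks (vertical axis, %) that overlapped no GR list (filled circles) or all 4 GR lists (open squares), by width of the H3K27ac peak (horizontal axis, bp), for peaks within 1 kb of a protein-coding gene end (red) and farther away (blue). The shaded widths are those of the regions described here; from 200 to under 500 bp up to 5000 bp and over, the GR-free share fell from 61.7% to 1.83% near gene ends and from 91.8% to 17.4% farther away.

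The 4 GR libraries left different numbers of regions uncovered. The 0 h lists reached 4999 and 4907 of the 10954 regions and the 6 h lists reached 5582 and 3996, the first and second 6 h library being the highest and the lowest of the 4. GR peaks of both times were present in 4824 regions, of a 0 h list only in 759 and of a 6 h list only in 884. Regions with a peak in both 6 h lists and neither 0 h list numbered 375, and the reverse pattern numbered 244. Read depth and controls of the lists are not stated in the labels, so an absent peak means that none passed the limit of the authors, and not that GR was absent. In bulk chromatin, binding in fewer cells and weaker binding per cell cannot be told apart.

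The edge of the definition is narrow for a few regions. The narrowest member, 1000 bp at Pik3cg, which encodes the catalytic gamma subunit of phosphoinositide 3-kinase, ended 1 bp from a GR peak, and another of 1000 bp, at Srp9, lay 1423 bp from GR. At the upper limit, members of 2991 and 2997 bp lay near Fanca, Rab10 and Trappc9, and peaks of 3000 bp near Greb1 and Bcor were just too wide. A GR peak lay within 50 bp of 13 members, within 100 bp of 31 and within 500 bp of 133 (2.96%), whereas 15 regions outside the set overlapped GR by 50 bp or less. Regions with GR in a single list held peaks of median fold enrichment 6.2 and 6.77 (0 h) and 6.32 and 6.2 (6 h). GR peaks in regions with GR in all 4 lists had medians of 8.57, 8.64, 9.37 and 6.59 in the same libraries. In each list the single-list peaks had the lower median, though in the second 6 h list there were only 71 of them. The median of that whole list was 6.89, above both. The 2 kinds of peak were set apart by the same peak calls, so this is a description and was not tested.

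GR-free regions were far less often at gene ends and promoters than regions with GR in all 4 lists. Of the GR-free regions, 531 of 4487 (11.8%, 95% Wilson interval 10.9 to 12.8) lay within 1 kb of either end of protein-coding genes, and 2591 of 3165 regions with GR in all 4 lists did (81.9%, 80.5 to 83.2). The difference was -70.0 percentage points (Fisher's exact test, two-sided, adjusted p below 1e-300), and the share was lower for GR-free regions on 20 of 20 chromosomes. A promoter window of a protein-coding gene lay in 255 of 4363 GR-free regions (5.84%) and in 2302 of 3066 regions with GR in all 4 lists (75.1%), a difference of -69.2 points (adjusted p below 1e-300). Regions are not replicates, since all come from 1 acetylation library and neighbours share a locus, so these tests describe the lists at hand. Read from the side of the genome, 11.1% of the 4792 acetylated regions near gene ends and 64.2% of the 6162 regions farther away were GR-free. GR in all 4 lists was found at 54.1% of the former and 9.32% of the latter.

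GR-free regions lay mainly inside genes, away from their ends. With each region placed in the first class that it met, 5.84% of GR-free regions held a promoter window, 7.63% lay at a gene end without a window, 55.8% inside a gene (2435 of 4363) and 30.7% outside genes. For regions with GR in all 4 lists these shares were 75.1%, 13.3%, 4.96% and 6.69%. The median distance to the nearest end of a protein-coding gene was 16788 bp for GR-free regions and 0 bp for the others, and 23.4% against 2.43% were more than 50 kb away. At any distance from a gene end, 1464 of 4487 GR-free regions (32.6%) and 285 of 3165 regions with GR in all 4 lists (9.0%) lay wholly outside protein-coding genes, a difference of 23.6 points (Fisher's exact test, adjusted p = 1.64e-141). This difference did not persist away from gene ends, in a split chosen after the data were seen. Among regions more than 1 kb from a gene end, 34.8% of GR-free regions and 36.4% of those with GR in all 4 lists lay outside genes, a difference of -1.60 points (Fisher's exact test, adjusted p = 0.568). Some of these regions still held a promoter window. Without them and without chromosome 18, 1340 GR-free regions lay outside genes and 2435 inside. For regions with GR in all 4 lists the counts were 205 outside and 152 inside, the opposite order, which was not tested.

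**Figure D2:**
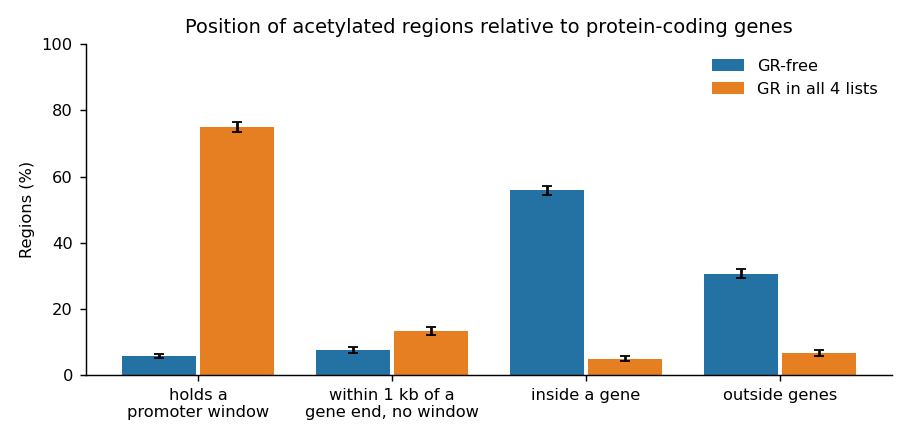
Share of regions (vertical axis, %) in each of 4 exclusive classes of location, for GR-free regions (blue) and regions with GR in all 4 lists (orange); bars are shares and error bars 95% Wilson intervals, without chromosome 18. The class inside a gene held 55.8% of GR-free regions and 4.96% of the others, and the class with a promoter window held 5.84% and 75.1%.

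On the X chromosome the acetylated gene ends were GR-free more often than on the autosomes. Of 145 regions within 1 kb of a gene end on X, 44 were GR-free (30.3%, 95% Wilson interval 23.5 to 38.3), against 487 of 4647 on the autosomes (10.5%, 9.63 to 11.4). The 19 autosomes ranged from 5.22% on chromosome 18 to 14.4% on chromosome 14, all below X. GR in all 4 lists was recorded at 25.5% of these regions on X and at 55.0% on autosomes. Farther than 1 kb from gene ends, the GR-free shares were 64.3% on X and 64.2% on autosomes. X held 1.95%, 2.02%, 1.77% and 1.46% of the peaks of the GR lists and 2.85% of H3K27ac peaks. X was singled out after its values were seen, and the difference was not tested.

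The distance from a GR-free region to the nearest GR peak had a median of 32901 and 32723 bp in the 0 h libraries and of 25228 and 40850 bp in the 6 h libraries. The shortest median belonged to the longest list (14732 peaks at 6 h), and the longest to the list of 10587 peaks at the same time. The 0 h lists, with 10115 and 9724 peaks, lay between them, so the times overlapped. With the 4 lists combined, the median was 17440 bp (quartiles 5637 and 49223 bp). A GR peak of some list lay within 1 kb of 242 members (5.39%), within 5 kb of 1014 (22.6%), within 10 kb of 1646 (36.7%) and within 50 kb of 3387 (75.5%). A further 543 members (12.1%) were more than 100 kb from any GR peak. Loci bound only at 6 h (in both libraries) lay within 5 kb of 180 members, loci bound only at 0 h within 5 kb of 93, and loci bound in all 4 libraries within 5 kb of 318. The whole genome held 2805, 771 and 5012 such loci.

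**Figure D3:**
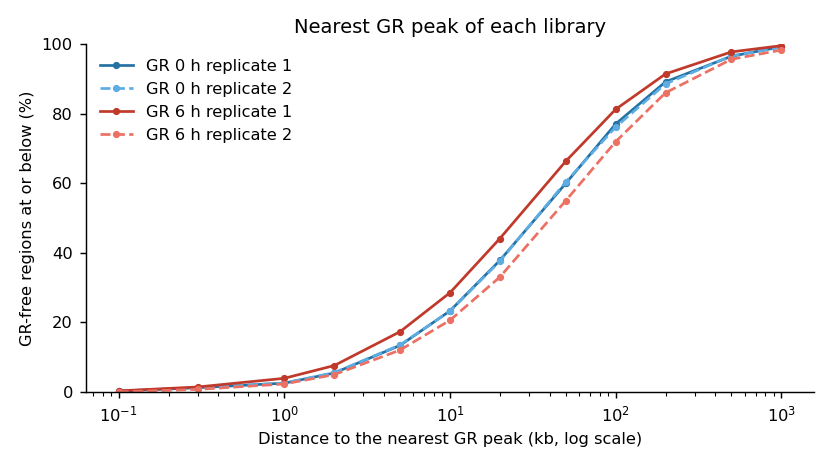
Share of the 4487 GR-free regions (vertical axis, %) whose nearest GR peak lies at or below a given distance (horizontal axis, kb, log scale), a line for each GR library. The lines of the 0 h libraries run together between those of the 6 h libraries; at 50 kb the 4 libraries stood at 60.0% and 60.4% (0 h) and 66.3% and 55.0% (6 h).

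The 10 members farthest from GR were all more than 1000 kb from any GR peak, and 4 of them lay on X. The farthest was in Lrch2, at chrX:147528483-147529483, 3058 kb from GR. Next came a region outside genes nearest to Il13ra2, which encodes an interleukin 13 receptor (2952 kb), and the promoter region of Tmem47, which encodes a membrane protein of cell junctions (2604 kb). The fourth X region, in Amot, which encodes the YAP-binding protein angiomotin, was 1104 kb away. On autosomes, the members of this group lay in Dcc, which encodes a netrin receptor (1440 kb), and in Fgf14 (1102 kb). Others lay outside genes nearest to Gm42163 (1456 kb), to Gpc6, which encodes a glypican (1317 kb), to Diaph3 (1163 kb) and to Cntn6 (1117 kb).

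GR-free regions lay closer to other acetylated peaks. Another H3K27ac peak of any width was within 5 kb of 2941 GR-free regions (65.5%, 64.1 to 66.9) and of 1352 regions with GR in all 4 lists (42.7%, 41.0 to 44.5), a difference of 22.8 points (Fisher's exact test, adjusted p = 1.72e-87). The GR-free share was the higher on 20 of 20 chromosomes. Among regions more than 1 kb from gene ends, a split chosen after the data were seen, the difference was smaller. It was 11.5 points (65.5% against 54.0%, Fisher's exact test, adjusted p = 2.25e-07). The median gap to the nearest acetylated peak was 1851 bp for GR-free regions and 7615 bp for the others. That nearest peak had no GR in 75% and 54.8%, respectively, beside 63.9% of H3K27ac peaks of all widths.

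The few promoter windows in GR-free regions had lower CpG ratios than those in regions with GR in all 4 lists. A window counted by 1 bp of overlap, so it could reach past the border of its region towards a GR peak. The CpG ratio reached 0.6 in 136 of 297 windows in GR-free regions (45.8%, 40.2 to 51.5) and in 2737 of 3046 windows in regions with GR in all 4 lists (89.9%, 88.7 to 90.9). The difference was -44.1 points (Fisher's exact test, adjusted p = 2.88e-68). Of these windows, 8 reached into both kinds of region and were counted on both sides of the test. The windows belong to 260 and 2600 genes, and some windows of a gene overlap each other. Windows, like regions, are therefore not replicates. The share over all 21020 windows of protein-coding genes in the table, acetylated or not, was 48.1%. Median CpG ratios were 0.562 for GR-free, 0.858 for GR in all 4 lists and 0.574 for all windows, and the median GC contents were 58.0%, 63.3% and 56.7%. Where no GR peak lay within 500 bp of the GR-free region, 43.4% of windows reached the limit, a difference of -46.5 points. With only the stronger 50% of each GR list, which makes 68.6% of the windows then GR-free reach the limit, the difference was -23.6 points. The windows of Lipe, Stat5a and Ptges shown above fall below the limit of 0.6 and those of Grem1, Dusp1 and Klf9 above it.

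**Figure D4:**
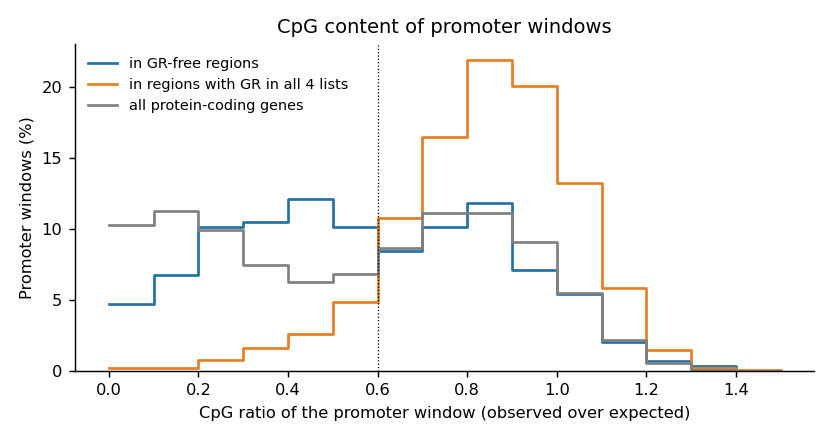
Distribution of the CpG ratio (horizontal axis, observed over expected) of promoter windows as a share of windows in each bin of 0.1 (vertical axis, %), for windows in GR-free regions (blue, 297), in regions with GR in all 4 lists (orange, 3046) and of all protein-coding genes in the table (grey, 21020). The dotted line marks the limit of 0.6; 45.8%, 89.9% and 48.1% of windows lie at or above it.

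Short motifs were counted on both strands of the windows. The GC box GGGCGG, which SP1 and related factors bind, was in 55.2% of windows in GR-free regions, in 70.8% of those in regions with GR in all 4 lists and in 46.6% of all windows. The ETS motif CCGGAAGT was in 3.70%, 11.3% and 5.20%, and the motif of NRF1, GCGCANGCGC, in 5.39%, 14.0% and 6.44%. These 3 motifs hold CpG or GC-rich letters, as the windows themselves do. The SF-1 motif CAAGGTCA was in 8 of 297 windows in GR-free regions (2.69%, 1.37 to 5.22), in 18 of 3046 (0.591%) and in 1.29% of all windows. The AP-1 motif TGANTCA was in 5.72%, 3.94% and 7.04%, and the TATA box TATAAA in 5.72%, 5.78% and 12.7%. The full GR element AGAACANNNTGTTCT was in 0 of 297 windows in GR-free regions (upper limit 1.28%), in 1 of 3046 and in 2 of 21020, so almost no window of any kind held these letters. Among the other motifs counted, the hexamer TGTTCT of the GR element was in 14.5%, 10.5% and 16.3%, and the cyclic AMP element TGACGTCA in 3.37%, 5.58% and 2.26%. The E-box CACGTG was in 10.1%, 10.6% and 7.91%, and the CCAAT box CCAAT in 31.6%, 36.1% and 38.5%. A match of letters is a description and not a site of binding.

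Genes were linked to regions that lay in the gene or within 10 kb of it. Of 21631 protein-coding genes, 2888 had at least 1 GR-free region (13.4%) and 4467 had a region with GR in all 4 lists (20.7%). Of the 8544 genes with any acetylated region of this width, the shares were 33.8% and 52.3%, and in 1295 genes (15.2%) every such region was GR-free. Both kinds were present at 881 genes. Genes with a GR-free region spanned a median of 39.5 kb, against 20.6 kb for genes with GR in all 4 lists and 17.3 kb for all genes. Among genes with an acetylated region, the share with a GR-free region rose from 24.1% at spans under 20 kb to 62.3% at 100 kb and over, and the share with GR in all 4 lists went from 56.9% to 34.3%. Gene length thus moved with both counts. A promoter window lay in a GR-free region in 262 of 17274 genes (1.52%) and in a region with GR in all 4 lists in 2599 (15.0%), where a window shared by several genes counts for each of them and a window reaching into both kinds of region counts as GR-free. No protein-coding gene lay within 10 kb of 1009 members (22.5%).

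At least 3 GR-free regions were counted at 365 genes (1.69%). Msi2, which encodes an RNA-binding protein of stem and progenitor cells, had 18, all inside its 378.9 kb span at chr11:88339382-88718306, beside 1 region with GR in all 4 lists. The region at its promoter, 2364 bp wide, is GR-free only by the border of the acetylated peak, since GR peaks lay 138, 150, 118 and 152 bp from it in the 4 libraries. Syne2, which encodes a nesprin of the nuclear envelope, had 11 GR-free regions, and Ap3b1, which encodes an adaptor subunit for vesicle transport, had 10. Both had a promoter window in a region with GR in all 4 lists. Abca4, which encodes a retinoid transporter, and Clec16a, which encodes a regulator of mitophagy, had 9 each and no region with GR in all 4 lists. Tanc1 had 8, and Capn5 (a calpain protease), Chst11 (a chondroitin sulfotransferase), Eya2 (a transcriptional coactivator and phosphatase) and Foxn3 (a forkhead repressor) had 7 each. These 4 are the first by symbol of 10 genes with 7 such regions, the others being Kank1, Mical3, Pkd1l2, Ubash3b, Vps13d and Zfp385b. Of Tanc1, Capn5, Chst11, Eya2 and Foxn3, only Foxn3 had a region with GR in all 4 lists, and it had 1.

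Gene lists were read by their counts against these shares. The list of the response to oestrogen and FSH had the highest share of genes with a GR-free region among the lists with 10 or more genes that had an acetylated region of this width. Of its 15 such genes (18 in all), 13 had a GR-free region and 2 a region with GR in all 4 lists, beside 33.8% and 52.3% of genes. Of their 50 regions, 28 were GR-free (56.0%) and 2 had GR in all 4 lists (4%). Gene ends and distal regions differed. Within 1 kb of a gene end, 0 of the 11 regions had GR in all 4 lists, where 54.1% of all such regions did, and 2 were GR-free. Farther away 26 of 39 were GR-free (66.7%), close to the 64.2% of all distal regions. The median span of these genes was 51.5 kb.

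Beside 1 region with GR in all 4 lists, Cyp19a1, which encodes aromatase, the enzyme that makes oestrogen, had 2 GR-free regions inside the gene. The first (chr9:54181601-54182920) lay 9384 and 2898 bp from GR in the 0 h lists, and 21618 and 21564 bp in the 6 h lists. The second (chr9:54186517-54187607) lay 5771 and 5814 bp away in the 0 h lists, and 16931 and 16877 bp in the 6 h lists. In both regions each 0 h library had its nearest peak closer than each 6 h library. Bmpr1b, which encodes a BMP receptor of the granulosa cell, had 5, all inside the gene. The closest of them (chr3:141891309-141892431) was 915 and 897 bp from GR in the 0 h lists, and 905 and 861 bp in the 6 h lists, with no order between the times, and the farthest had GR 45271 bp away in the nearest library. Esr1, which encodes oestrogen receptor alpha, had 2, with GR 19141 and 73243 bp away at the nearest.

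Ccnd2, which encodes the cyclin D2 that FSH induces, had a GR-free region at its gene end (chr6:127151287-127152312) with a GR peak 163 and 121 bp away in the 0 h lists, and 125 and 178 bp in the 6 h lists. A GR peak of every library thus lay just beside it. Lhcgr, which encodes the receptor of LH and hCG, Igf1, which encodes insulin-like growth factor 1, and Igf1r, which encodes its receptor, were named after their values were seen. Lhcgr had 3 GR-free regions, and the nearest GR peak of some library lay 2973, 842 and 5807 bp away. Igf1 had 3, with GR 4808, 23634 and 59194 bp away, and in the first 0 h library and the second 6 h library no GR peak lay within 260 kb of any of the 3. Igf1r had 4, all inside the gene and with GR within 1079 to 3360 bp in the nearest library.

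The list of granulosa cell identity showed the same order. Of its 14 genes with an acetylated region of this width, 9 had a GR-free region and 3 a region with GR in all 4 lists. Of 34 regions, 17 were GR-free (50%) and 3 had GR in all 4 lists (8.82%), and of its 24 distal regions 14 were GR-free (58.3%), below the 64.2% of all distal regions. Within 1 kb of gene ends, 3 of 10 regions were GR-free and 1 had GR in all 4 lists. Of the 17, 10 lay at 2 genes, namely 6 at Zeb2, which encodes a zinc finger repressor and was named after its values were seen, and 4 at Esr2, which encodes oestrogen receptor beta. At Esr2, 1 of the 4 lay inside the gene. It (chr12:76162753-76164369) was 1371 and 7769 bp from GR in the 0 h lists, and 8111 and 7851 bp in the 6 h lists. Emx2, which encodes a homeodomain factor of gonad development, had 1 with GR 1909 to 2499 bp away in the 4 libraries. Amhr2, which encodes the receptor of anti-Müllerian hormone, had 1 with GR 2144 bp away in the second 0 h library and about 20 kb away in the other 3 libraries (20229 bp at 0 h, 20251 and 20309 bp at 6 h). Bnc2, which encodes a zinc finger protein, had 1 with GR 114987 and 132030 bp away in the 0 h lists, and 49261 and 49236 bp in the 6 h lists.

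The list of the glucocorticoid response had the opposite composition. Of its 15 genes with an acetylated region of this width, 2 had a GR-free region and 13 had a region with GR in all 4 lists. Of 27 regions, 6 were GR-free (22.2%) and 16 had GR in all 4 lists (59.3%). Within 1 kb of gene ends, 0 of 15 regions were GR-free and 11 had GR in all 4 lists, beside 11.1% and 54.1% of all such regions. Of its 12 distal regions, 6 were GR-free and 5 had GR in all 4 lists, beside 64.2% and 9.32% of all distal regions. Of the 6 GR-free regions, 5 lay inside Fkbp5, which encodes an immunophilin that lowers the hormone affinity of GR and is a standard target of it. They lay 3219, 4127, 5626, 9168 and 24342 bp from the nearest GR peak. Distances of the first (chr17:28424145-28425403) were 3645 and 3541 bp in the 0 h lists, and 3219 and 3593 bp in the 6 h lists, and those of the third (chr17:28437743-28438984) were 5626 and 5638 bp in the 0 h lists, and 16817 and 17191 bp in the 6 h lists. The sixth lay inside Sgk1, which encodes a serum- and glucocorticoid-induced kinase, with GR 576 and 581 bp away in the 0 h lists, and 525 and 540 bp in the 6 h lists. GR-free regions therefore lay inside 2 genes of this list, at most 24342 bp from a GR peak.

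**Figure D5:**
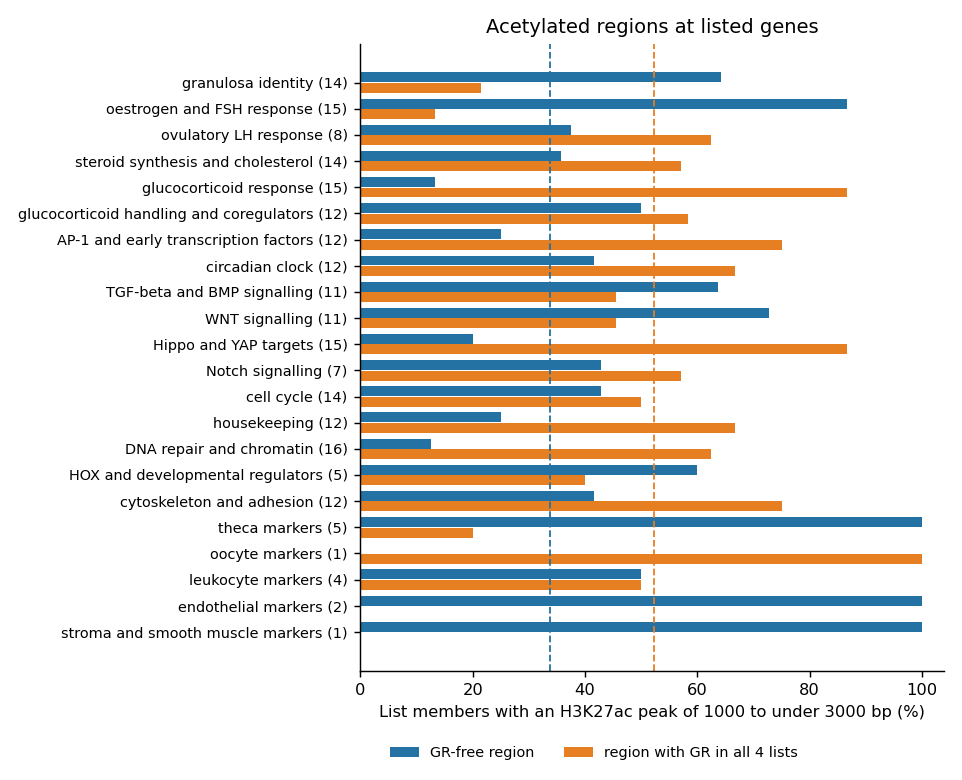
For each of 22 gene lists, the share of genes (horizontal axis, %) with a GR-free region (blue) or a region with GR in all 4 lists (orange) in the gene or within 10 kb, among list members with an H3K27ac peak of 1000 to under 3000 bp (their number in parentheses). Dashed lines mark the shares over all 8544 such protein-coding genes, 33.8% and 52.3%; the oestrogen and FSH list had 13 and 2 of 15 genes and the glucocorticoid response list 2 and 13 of 15.

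Genes of steroid synthesis and cholesterol uptake were mixed. Of 33 regions at the 14 genes with an acetylated region, 15 were GR-free (45.5%) and 8 had GR in all 4 lists (24.2%), and 13 of 20 distal regions were GR-free (65.0%). All 8 with GR in all 4 lists lay at gene ends. Scarb1, which encodes the receptor for high-density lipoprotein, had 5 GR-free regions, 4 of them inside the gene, with GR 1275 to 6086 bp away at the nearest. Cyp11a1, which encodes the enzyme that cleaves the cholesterol side chain, had 1, at 3681 and 454 bp from GR in the 0 h lists, and 442 and 2709 bp in the 6 h lists. Lipe had 3 and Abca1, which encodes a cholesterol exporter, had 2. Among the 25 genes of the ovulatory response to LH, only 8 had an acetylated region of this width, as recorded before hCG. Of the 18 regions at these genes, 3 were GR-free (16.7%) and 8 had GR in all 4 lists (44.4%). All 3 were among the 8 distal regions of this list. They lay at Pparg (a nuclear receptor of the ovulatory follicle), Cebpa (a transcription factor of differentiation) and Rgs2 (which shortens the signal of G proteins).

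Genes that handle glucocorticoid signals had 10 GR-free regions among 26 (38.5%), near the 41.0% of all regions, and all 10 were among 13 distal regions. Ncoa1, Ncoa3 and Ncor1, which encode coactivators and a corepressor of nuclear receptors, had 1 each, as did Fkbp4, which encodes a cochaperone of GR. Of the genes for AP-1 and early transcription factors, Fos, Jund and Atf4 had 1 GR-free region each, 3 of 15 regions in all (20%), against 10 with GR in all 4 lists (66.7%). The 3 were among 7 distal regions. Clock genes had 6 of 22 (27.3%), with 5 of 8 distal regions (62.5%). The 6 included 2 inside Per2 and 1 inside Cry2, which encode repressors of the clock, 1 inside Rora (a nuclear receptor) and 1 near Bhlhe40 (a repressor of transcription).

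Among signalling lists, WNT genes had 13 GR-free of 27 regions (48.1%), with 12 of 16 distal regions (75%). Lrp5 and Lrp6, which encode WNT coreceptors, had 3 and 1, Lgr4, which encodes an R-spondin receptor, had 2, and Tcf7, which encodes a transcription factor of the pathway, had 1. Transforming growth factor beta and BMP genes had 10 of 24 (41.7%), with 8 of 17 distal regions. Acvr1 and Bmpr2, which encode receptors, had 2 each, and Grem1 and Smad1 had 1. Notch genes had 6 of 14 (42.9%), with 5 of 8 distal regions, and 4 of the 6 lay at Heyl, which encodes a repressor downstream of Notch. At Heyl GR lay 1139 to 9817 bp away in the first 6 h library and more than 32 kb away in the other 3. Hippo genes had 5 of 21 (23.8%), at Wwtr1 (the coactivator TAZ), Stk4 (the kinase MST1) and Fat1 (an atypical cadherin), against 14 with GR in all 4 lists (66.7%). All 5 were among 10 distal regions.

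Cell cycle genes had 9 GR-free regions of 30 (30.0%). Cdk6, a kinase of the G1 phase, had 4 inside the gene and Cdk1, the kinase of mitosis, had 1 at its gene end. Cdkn1b, which encodes the inhibitor p27, had 1 with GR 63 and 91 bp away in the 0 h lists, and 103 and 220 bp in the 6 h lists. Housekeeping genes had 4 of 20 (20%), at Gapdh, Hprt and Ppia, against 12 with GR in all 4 lists (60.0%). Genes of DNA repair and chromatin had 2 of 21 (9.52%), near Dnmt3a (a DNA methyltransferase) and Brca1 (a repair protein), against 11 with GR in all 4 lists (52.4%). These lists hold mostly gene ends, with 2 distal regions of 20 and 5 of 21. HOX and developmental regulators had 4 of 8 (50%), with 2 of 3 distal regions, and 1 each lay at Hoxc6 and Hoxc8. Genes of cytoskeleton and adhesion had 10 of 25 (40.0%), with 8 of 14 distal regions. Of these genes Actn4 had 4 GR-free regions, Myh9 had 3, and Actn1 and Lamc1 had 1 each.

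The acetylation library was checked against markers of cell types. Some H3K27ac peak of any width lay in or within 10 kb of 18 of 18 granulosa identity genes, where 63.0% of all protein-coding genes had one. It did so for 5 of 10 theca, 6 of 14 oocyte, 6 of 14 leukocyte, 4 of 13 endothelial and 4 of 14 stroma and smooth muscle markers. GR-free regions lay at 5 theca markers, namely Cyp17a1 (the androgen-making enzyme), Nr2f2, Mgarp, Aldh1a1 and Ptch1, and 1 of these genes also had a region with GR in all 4 lists. They lay at 2 leukocyte markers (Fcer1g and Spi1), 2 endothelial markers (Cdh5 and Pecam1), 1 marker of smooth muscle (Myh11) and 0 of 14 oocyte markers. Among marker genes with an acetylated region of this width, where 33.8% of all such genes had a GR-free region, those with one were 5 of 5 theca, 2 of 4 leukocyte, 2 of 2 endothelial, 1 of 1 stroma and smooth muscle and 0 of 1 oocyte genes. The part of other cell types in the GR-free regions was not tested.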

How the data were processed

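The 5 deposited peak lists used here are from wild-type cells, 2 GR libraries at 0 h, 2 at 6 h and 1 H3K27ac library at 0 h; the other 4 samples of the series were not analysed here. Reads were aligned with Bowtie2 2.4.5 to mm10 and peaks called with MACS2, per the submitters' processing notes; the MACS2 version and the control are not stated there or in the labels. For each GR peak the deposited lists give a score, a fold enrichment (a ratio), a −log10 p-value and a −log10 q-value, all as the authors made them, and each peak has a −log10 p-value of 9 or more. The deposited H3K27ac list gives positions only.

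Peaks on chromosomes 1 to 19 and X were used, and overlap meant 1 bp or more. Genes and promoter windows are from RefSeq on GRCm38.p6; no windows of chromosome 18 were used, so promoter and CpG shares leave that chromosome out. All members of the gene lists (409 entries, 404 genes) were found in the gene table. Tests of shares were two-sided Fisher's exact tests, Benjamini-Hochberg adjusted over 5 shares, with 95% Wilson intervals, which cover counting error only. Python 3.11.15 with numpy 2.4.6, pandas 2.3.3 and scipy 1.17.1 was used, and the code was tested on simulated data. Alternatives were stricter, equal-length or left-out GR lists, other widths, distances and CpG limits.

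The regions and gene lists were chosen with earlier results of these data known. Genes named are the 10 regions farthest from GR, the 10 genes with most GR-free regions (ties by symbol), and in each list up to 4 members with the nearest GR-free region and up to 6 with their promoter in one, except that some are not reported here. Further genes, chosen once their values were known, are the genes at the edges of the definition, Dusp1, Klf9, Ptges, Stat5a, Lhcgr, Igf1, Igf1r, Zeb2, Ptch1, the genes tied with the last of the 10 and the hosts of microRNAs. The genes named at the end for runs of acetylated peaks were also chosen once their values were known.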

Additional observations from a re-analysis of the deposited data

How the results depend on the processing

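The number of GR-free regions and of genes with one depend on the widths admitted. With all widths there were 23932 regions and 8954 genes; widths of 1000 to under 1500 bp gave 2536 regions, 1500 to under 2000 bp gave 1091 regions and 930 genes, and 2000 to under 3000 bp gave 860 regions and 698 genes. The gene count was 4565 with the stronger 50% of each GR list and 5762 with a window of 50 kb. Leaving out each GR library in turn gave 4557 to 4926 regions and 2945 to 3260 genes. The difference for gene ends stayed between -72.5 and -59.5 points over 14 alternatives and for promoter windows between -70.2 and -60.0 over 11, each past the threshold. The difference for another peak within 5 kb stayed between 11.5 and 25.9 points over 15 alternatives and for the CpG ratio between -64.7 and -23.6 over 14, also past it. Both ranges include splits at 1 kb from gene ends, which were chosen after seeing the data. Without these splits the ranges were 16.4 to 25.9 points over 13 alternatives and -57.4 to -23.6 over 12. The share outside genes was 21.1 to 24.5 points higher in GR-free regions under 11 alternatives, and -1.60 points among regions more than 1 kb from gene ends, an alternative that, like its counterpart near gene ends (13.5 points), was chosen after seeing the data. No paired analysis was possible because both kinds of regions come from the same libraries, so replicate numbers form no block between them, and the values set side by side by time were not tested. Unknown depth limits what an absent peak shows.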

Other observations

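Of 1005 microRNA hairpins in the RefSeq table, 5 lay in GR-free regions and 34 in regions with GR in all 4 lists. The GR-free regions covered 7015.2 kb and those with GR in all 4 lists 5401.1 kb, and the counts of hairpins were not tested. The 5 hairpins in GR-free regions are Mir26a-1, Mir6977, Mir7670, Mir5132 and Mir718, and their host regions were chosen for mention after they were found. Mir26a-1 lies in Ctdspl, which encodes a small phosphatase, in a region at chr9:119030918-119033587 that was 54297 bp from the nearest GR peak. Its main mature strand is shown with the seed in capitals, since it is a broadly expressed microRNA family.
mmu-miR-26a-5p: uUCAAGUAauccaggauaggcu
Mir5132 and Mir718 share the GR-free region at the promoter of Irak1, which encodes a kinase of interleukin 1 signalling, on X, 54903 bp from GR.

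Some GR-free regions stood in runs of acetylated peaks of any width that held no GR peak and followed each other with gaps of 10 kb or less. The runs with the most members held 6 GR-free regions each. They lay 70764 bp from Cspg4b (10 acetylated peaks over 33.3 kb), 90445 bp from Ly86 (10 peaks over 32.9 kb) and 22208 bp from Ivns1abp (8 peaks over 20.8 kb). Runs with 5 members overlapped Atf7ip, Ap3b1, Arhgap27 with Plekhm1, and Fbxo34. Thus the first 3 runs lay outside protein-coding genes and the next 4 overlapped them.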
